A study of Lathyrus oleraceus with 6 samples.

Results

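On pea chromosome 5, the neighbouring loci Psat5g190640, Psat5g190680 and Psat5g190720, had more transcript in roots kept with the chitooligosaccharide CO8-DA than in control roots. They make up 3 of the 44756 loci in the count table and follow each other directly in it, with no other locus between them. Psat5g190640 and Psat5g190680 are described as ABC transporter A family proteins and Psat5g190720 as a dnaJ homolog of subfamily B. The 3 loci were picked because they lie side by side and because of their estimated counts in the CO8-DA and control libraries, so their difference between the groups is given as a description, with no test.

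The 6 RNA-seq libraries came from whole roots of wild-type pea seedlings of cultivar Frisson, 4 to 5 days old at the start. The 3 CO8-DA libraries are from seedlings incubated for 24 h in half-strength Jensen's medium with 1e-05 M CO8-DA, a mixture of deacetylated chitin fragments. The 3 control libraries are from seedlings kept for the same time in that medium alone. Each library pooled a few plants, and the study describes the 3 of a group as independent biological repeats. The estimated counts summed to between 12955804 and 19534336 in the CO8-DA libraries and to between 12315774 and 14492483 in the control libraries. Levels are given as CPM, which are estimated counts relative to the library total after scaling by the TMM method. The root label could not be checked, because the table pairs no root marker gene with a locus number.

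ABC transporters are membrane proteins that use ATP to move substances across a membrane. Proteins of the A subfamily are known in animals for moving lipids, and in Arabidopsis a member of this subfamily supplies fatty acids to the endoplasmic reticulum of developing seeds. DnaJ proteins, also called J-domain proteins, are co-chaperones that stimulate the ATPase activity of heat shock proteins of the Hsp70 class and hand them unfolded proteins. Chitooligosaccharides are fragments of the fungal cell wall polymer that plants sense through receptor kinases with LysM domains.

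The annotation gives the 3 loci different sets of protein domains. Psat5g190640, matched to ABC transporter A family member 7-like, carries the ATP-binding domain ABC_tran and the membrane domain ABC2_membrane_3, together with other domain matches. Psat5g190680 carries neither and has only DUF4162, a domain of unknown function. Psat5g190720 has the DnaJ domain, which contacts Hsp70, and the C-terminal domain DnaJ_C. Another listed locus of the family, Psat0s3007g0040, is described as ABC transporter A family member 2 on an unplaced scaffold and carries ABC_tran and ABC2_membrane_3 as well. The protein entries matched by Psat0s3007g0040, Psat5g190640 and Psat5g190720 belong to the same numbered series of database entries, that of Psat0s3007g0040 standing 1 before that of Psat5g190640 and that of Psat5g190720 standing 3 after it. Whether the scaffold borders the cluster in the pea genome was not tested, nor was whether Psat5g190640 and Psat5g190680 are parts of a single gene, so the pair may stand for 1 transporter or 2.

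Psat5g190640 was the most abundant of the 3 loci by counts. It had 756, 830 and 1346 estimated counts in CO8-DA replicates 1, 2 and 3, against 311, 117 and 344 in control replicates 1, 2 and 3. On the CPM scale these were 59.0, 52.1 and 68.9 in the CO8-DA roots, against 21.1, 9.55 and 24.6 in the control roots. The lowest CO8-DA library was 2.12 times the highest control library, so the groups did not overlap. The mean level was 60.0 ± 8.40 CPM after CO8-DA and 18.4 ± 7.87 CPM in the control (SD, n = 3 each), a ratio of 3.26. The log2 fold change of the whole-table fit was 1.70 with a standard error of 0.30. Of the 21293 loci tested in that fit, 97.9% had a smaller log2 fold change.

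Psat5g190680, the locus annotated with DUF4162 alone, lay lower in counts but followed the same order of libraries. Its estimated counts were 204.11, 249.03 and 368.1 in CO8-DA replicates 1, 2 and 3, against 105, 52 and 112.98 in control replicates 1, 2 and 3. In CPM the libraries stood at 15.9, 15.6 and 18.8 in the CO8-DA roots, against 7.12, 4.24 and 8.07 in the control roots. Again no control library reached any CO8-DA library, and the smallest gap was 1.94-fold. The means were 16.8 ± 1.76 CPM after CO8-DA and 6.48 ± 1.99 CPM in the control (SD, n = 3 each), with a log2 fold change of 1.37 (standard error 0.23). The estimates were not whole numbers, by a tolerance of 0.005, in 4 of the 6 libraries, so some of its reads were divided with another locus. For Psat5g190640 and Psat5g190720 they were whole in all 6 libraries.

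The dnaJ homolog Psat5g190720 had the fewest counts of the 3 and varied mainly among the CO8-DA libraries. It had 77, 166 and 218 estimated counts in CO8-DA replicates 1, 2 and 3, against 44, 39 and 42 in control replicates 1, 2 and 3. The levels were 6.01, 10.4 and 11.2 CPM in the CO8-DA roots, against 2.98, 3.18 and 3.00 CPM in the control roots. The control libraries were almost level, while CO8-DA replicate 1 stood well below CO8-DA replicates 2 and 3. It was nevertheless 1.89 times the highest control library. Its mean was 9.20 ± 2.79 CPM after CO8-DA and 3.06 ± 0.11 CPM in the control (SD, n = 3 each), with a log2 fold change of 1.59 (standard error 0.26).

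The CO8-DA libraries of all 3 loci therefore lay above the control libraries, which also held for 13.6% of the 21293 tested loci. Since the loci were chosen by this contrast, nothing is read from that count. The number of plant cells that express a gene and the amount of its RNA per cell cannot be told apart in whole roots. With 1 library left out at a time, the log2 fold change stayed between 1.39 and 1.96 for Psat5g190640, between 1.14 and 1.56 for Psat5g190680 and between 1.43 and 1.82 for Psat5g190720.

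**Figure D1:**
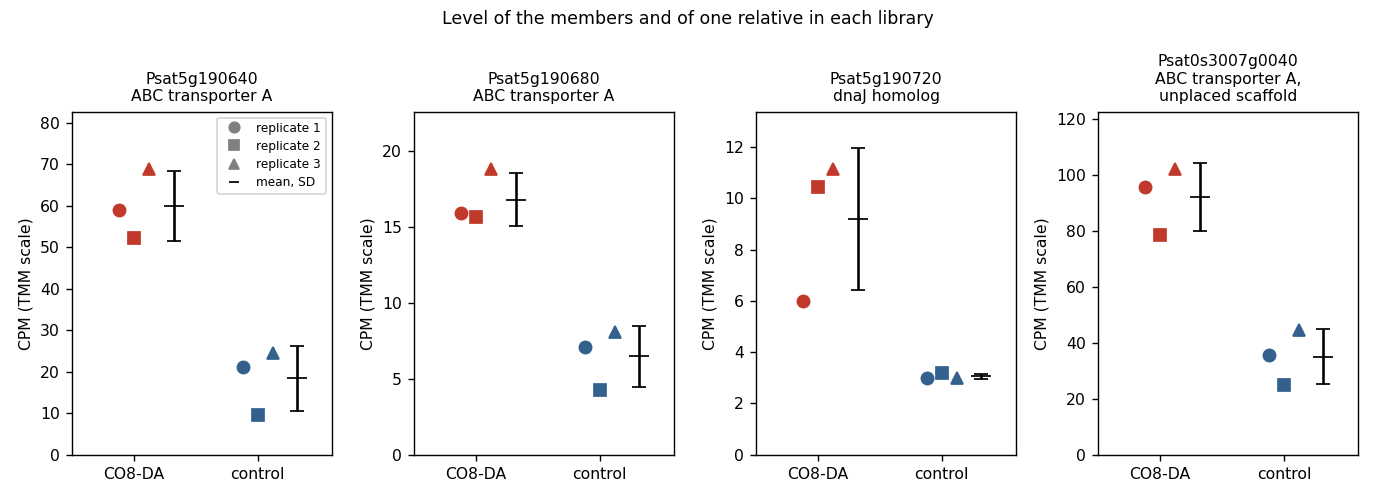
Level in CPM (TMM scale) of the 3 loci and of Psat0s3007g0040 in each library, CO8-DA left and control right; symbols are the replicates and the bar is the mean with its SD (n = 3). In each panel the CO8-DA libraries lie above the control libraries, and control replicate 2 is lowest in the 3 ABC transporter panels but not in that of the dnaJ homolog.

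The order of the libraries inside a group was not itself used to choose the loci, although the level of each library entered the contrast that chose them. In this order both ABC transporter loci differed from the dnaJ homolog. Control replicate 2 was the lowest control library for Psat5g190640, with 9.55 CPM and a 95% exact Poisson interval of 7.89 to 11.4 CPM, which did not overlap the intervals of control replicate 1 (18.8 to 23.6 CPM) or 3 (22.0 to 27.3 CPM). These intervals cover counting error only. For Psat5g190680 the interval of control replicate 2, 3.17 to 5.56 CPM, lay below that of control replicate 1 (5.82 to 8.62 CPM) and that of control replicate 3 (6.65 to 9.70 CPM). For the dnaJ homolog the 3 control intervals overlapped almost fully, the lowest bound being 2.16 CPM and the highest 4.35 CPM. Its CO8-DA replicate 1, at 4.74 to 7.51 CPM, lay below the intervals of CO8-DA replicate 2 (8.90 to 12.1 CPM) and 3 (9.72 to 12.7 CPM).

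A low control replicate 2 was common among responding loci. On the log2 CPM scale the difference of this library from the mean of control replicates 1 and 3 was -1.24 for Psat5g190640, -0.82 for Psat5g190680 and 0.09 for Psat5g190720. Over all tested loci the median difference was 0.00, and it was -0.50 over the 561 loci (2.63% of those tested) called higher after CO8-DA. Control replicate 2 was the lowest control library in 66.8% of these 561 loci and in 35.4% of all tested loci. A low control library adds to the difference by which the 561 were called, so they are not an independent comparison. Without this library the log2 fold change was 1.39 for Psat5g190640 and 1.14 for Psat5g190680, the lowest values with any 1 library left out, and 1.62 for Psat5g190720. What sets this library apart was not tested. The coefficient of variation of the CPM was 14.0% after CO8-DA and 42.7% in the control for Psat5g190640. It was 10.5% after CO8-DA and 30.8% in the control for Psat5g190680, and for the dnaJ homolog 30.3% after CO8-DA and 3.60% in the control. This 3.60% is below what counting error alone would give at 39 to 44 counts, so it does not measure how steady the locus is.

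The ratio of 2 loci within a library needs no scaling and shows how closely they moved together. Estimated counts are not divided by gene length, so only the change of a ratio between libraries can be read. Psat5g190640 had 3.70, 3.33 and 3.66 counts per count of Psat5g190680 in CO8-DA replicates 1, 2 and 3, against 2.96, 2.25 and 3.04 in control replicates 1, 2 and 3. The 3 CO8-DA ratios lay above the 3 control ratios, and the difference of the mean log2 ratios was 0.38, against a spread within groups of 0.18 (SD on the log2 scale). Without 1 library this difference lay between 0.25 and 0.46. This difference was smaller than the difference of either locus on its own. Both loci were chosen for their rise in this contrast, so that is largely given by the choice and nothing is read from it.

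Against the dnaJ homolog the ratios scattered widely. Psat5g190640 had 9.82, 5.00 and 6.17 counts per count of Psat5g190720 in CO8-DA replicates 1, 2 and 3, against 7.07, 3.00 and 8.19 in control replicates 1, 2 and 3. The groups overlapped, and the difference of the mean log2 ratios, 0.27, was smaller than the spread within groups of 0.66. It turned to -0.01 without CO8-DA replicate 1 and to -0.18 without control replicate 2. For Psat5g190680 over Psat5g190720 the difference was -0.12 with a spread of 0.49. It turned to 0.05 without CO8-DA replicate 2 and to 0.08 without control replicate 3.

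**Figure D2:**
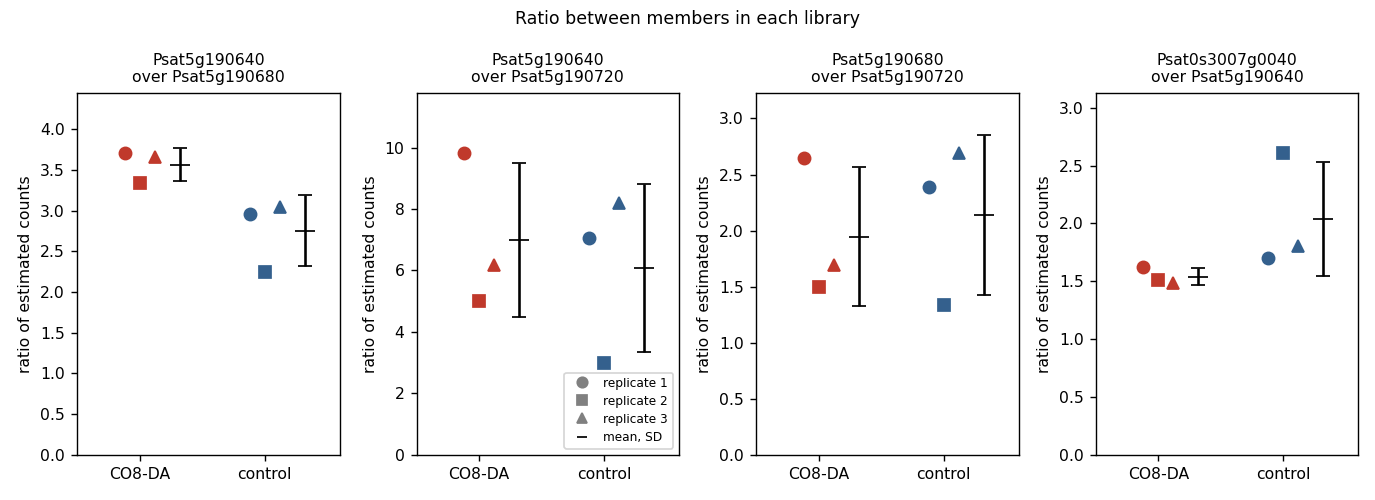
Ratio of estimated counts between pairs of loci in each library, CO8-DA left and control right; symbols are the replicates and the bar is the mean with its SD (n = 3). Of the pairs shown, only those of ABC transporter loci did not overlap between the groups, and by narrow gaps. Psat5g190640 over Psat5g190680 was 3.33 to 3.70 after CO8-DA and 2.25 to 3.04 in the control. Both ratios to the dnaJ homolog overlapped. The loci were picked by their change in these libraries, so nothing is read from these separations.

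The loci on both sides of the cluster were taken by position alone, 10 on each side in the order of the locus numbers. None of them has a description in the sources used here. Of these 20 loci, 3 had no counts in any library and 14 passed edgeR's filter on low counts and were tested. A locus was called different when its adjusted p was under 0.05 and its log2 fold change at least 1 in size. In edgeR's quasi-likelihood test this held for none of the 14, against 3.13% of all tested loci (666 of 21293). At that share 14 loci would most often hold no call, so nothing is read from this count. None of the 14 had an unadjusted p under 0.05, and DESeq2 also called none. Their log2 fold changes ran between -0.64 and 0.50 with a median of 0.00, and 7 were positive and 7 negative. The median over all tested loci was -0.01. Both limits rest on single libraries. The lower limit was -1.42 without CO8-DA replicate 3 (Psat5g190520, adjusted p of 0.110 in edgeR), -0.33 without CO8-DA replicate 1 and -0.40 without control replicate 2, and the upper limit was 1.30 without control replicate 1 (Psat5g190960, adjusted p of 0.379 in edgeR).

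At both ends of the cluster the next locus had a much smaller difference between the groups. A neighbour that rose as well could have been picked with the cluster, so this is partly given by the choice. Psat5g190600, the locus just before it, had 29, 38 and 32 estimated counts in the CO8-DA libraries, against 34, 17 and 24 in the control libraries, which gave a log2 fold change of 0.20 ± 0.30 (SE) and an adjusted p of 0.772 in edgeR. Psat5g190560, one further out, had 43.73, 54.09 and 112.17 estimated counts in the CO8-DA libraries, against 39.12, 40.01 and 42.85 in the control libraries. Its log2 fold change of 0.50 was the highest of the flanking loci and did not pass the correction (SE 0.27, adjusted p of 0.370 in edgeR). Its CPM did not overlap between the groups, by a gap of 1.04-fold, and CO8-DA replicate 3 stood well above the other CO8-DA libraries. Such a separation upward held for 1 of the 14 tested flanking loci and for 13.6% of all tested loci, so nothing is read from it.

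On the other side Psat5g190760 was far more abundant than the cluster by counts and nearly level. It had 1884.51, 2060.2 and 2668.1 estimated counts in the CO8-DA libraries, against 1962.16, 1783.9 and 1830.87 in the control libraries, with 0.01 ± 0.10 (SE) as its log2 fold change and an adjusted p of 0.962 in edgeR. The next locus out, Psat5g190800, had 0 counts in all 6 libraries. One flanking locus was called in a fit that blocked on the library numbers, Psat5g190520, with a log2 fold change of -1.48 (adjusted p of 0.0307 in edgeR). Its own counts overlapped between the groups, with 14.16, 25.45 and 79.87 in the CO8-DA libraries, against 48.67, 57.61 and 39.11 in the control libraries. In that fit control replicate 1 and CO8-DA replicate 3 share their number with no other library and add nothing to the group difference.

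**Figure D3:**
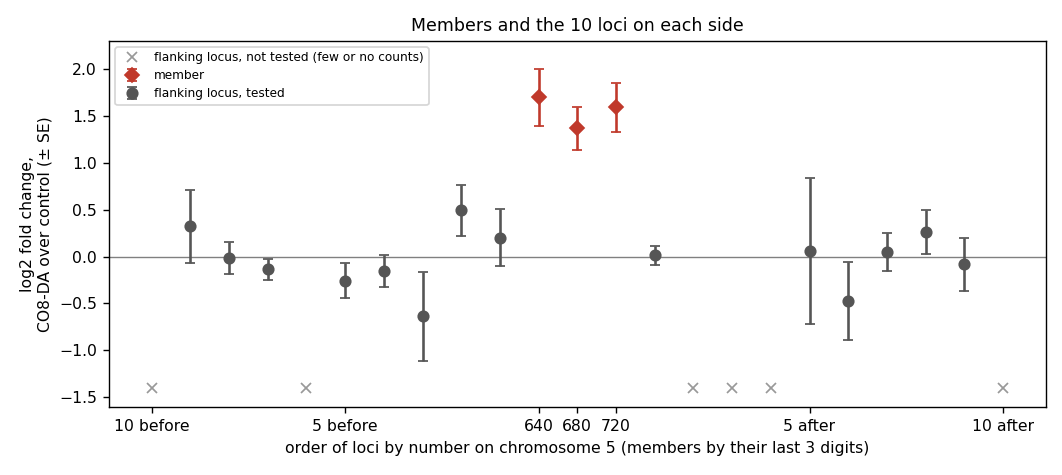
Log2 fold change of CO8-DA over control, with its standard error, for the 3 loci (diamonds) and the 10 loci on each side (circles), in the order of their numbers on chromosome 5; crosses at the bottom mark flanking loci with too few counts to be tested. The 3 loci stand between 1.37 and 1.70, and the tested flanking loci between -0.64 and 0.50. The flanking limits moved to -1.42 without CO8-DA replicate 3 and to 1.30 without control replicate 1. The 3 loci were chosen by this contrast, so the drop at the edges of the cluster is partly given by the choice.

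In all, 4 loci are described as ABC transporter A family in the supplementary tables at hand, the pair on chromosome 5 and 2 on unplaced scaffolds. One table holds the loci listed as changed, up or down, in the same libraries. Of the other only the rows with the highest fold changes were at hand. The loci below were therefore picked by their change in these libraries and get no test. Psat0s3007g0040 had 1229, 1253 and 1998 estimated counts in the CO8-DA libraries, against 528, 305 and 622 in the control libraries. Its mean was 92.3 ± 12.2 CPM after CO8-DA and 35.0 ± 9.80 CPM in the control (SD, n = 3 each), with a log2 fold change of 1.40 (standard error 0.21). As in both ABC transporter loci of the cluster, and in 66.8% of the 561 loci called higher, control replicate 2 was its lowest control library. The difference of that library from the mean of control replicates 1 and 3 was -0.68 on the log2 CPM scale. The ratio of Psat0s3007g0040 to Psat5g190640 was 1.63, 1.51 and 1.48 in CO8-DA replicates 1, 2 and 3, against 1.70, 2.61 and 1.81 in control replicates 1, 2 and 3. The 3 CO8-DA ratios lay below the 3 control ratios, but 1.63 and 1.70 nearly met and control replicate 2 stood apart. The difference of the mean log2 ratios was -0.38, against a spread within groups of 0.24 (SD on the log2 scale). Both loci were picked by their change in these libraries, so nothing is read from this ratio. Psat0s253g0040 was hardly expressed, with 10.89, 18.42 and 23.77 estimated counts in the CO8-DA libraries, against 6.45, 2.10 and 10.92 in the control libraries. None of its estimates was whole, so its reads were shared with another locus in all 6 libraries.

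Among loci listed as changed, 6 are described as ABC transporters of other families, and all 6 were higher after CO8-DA. Of the 666 loci called in the whole-table fit, 561 were higher, so nothing is read from the direction of these 6. Their log2 fold changes lay between 1.01 and 2.52. The largest was that of Psat4g021240, an ABC transporter B family protein with 79.2 CPM after CO8-DA and 13.7 CPM in the control on average. Plant proteins of the B family include exporters of the hormone auxin. Psat0s6741g0040 and Psat6g159040, of the same family, had log2 fold changes of 2.20 and 1.01. Psat2g009080, a multidrug resistance ABC transporter, had the smallest standard error of the 6, with a log2 fold change of 1.96 (standard error 0.09). Psat6g194440, matched to ABC transporter C family member 10-like, stood at 1.23, and Psat7g099800, matched to ABC transporter G family member 11-like, at 1.43. In Arabidopsis the G family protein of that number exports cutin and wax lipids. The ABC transporter loci of the cluster lie inside the range of these 6.

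The dnaJ homolog of the cluster had a smaller fold difference than the other 2 listed dnaJ loci that could be tested, and a higher level by counts. Psat1g217600, a chaperone DnaJ domain protein, had 18, 18 and 41 estimated counts in the CO8-DA libraries, against 4, 1 and 5 in the control libraries (log2 fold change 2.64, standard error 0.50). Psat7g098120, with the same description, had 19, 28 and 54 in the CO8-DA libraries, against 7, 3 and 3 in the control libraries (log2 fold change 2.65, standard error 0.45). The dnaJ loci Psat5g262280 and Psat6g095960 had at most 4.95 estimated counts in any library and were not tested.

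**Figure D4:**
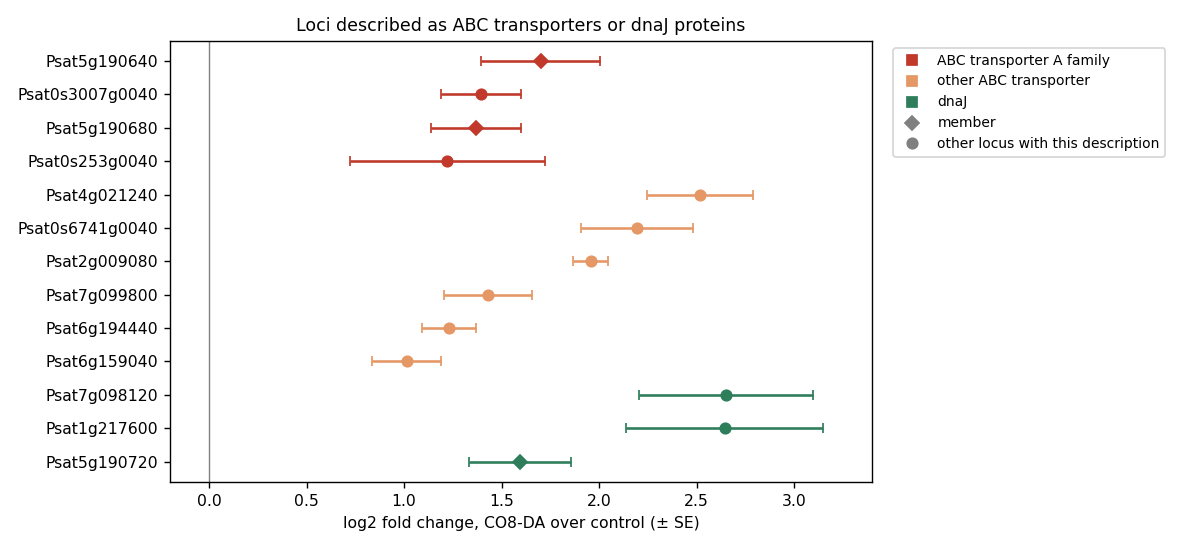
Log2 fold change of CO8-DA over control, with its standard error, for loci described as ABC transporter A family, other ABC transporter or dnaJ; diamonds are the 3 loci of the cluster. All were taken from lists selected on their change in these libraries, and the cluster's values of 1.37 to 1.70 lie inside the overall range of 1.01 to 2.65.

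Likeness of profile was measured as the root mean square difference of log2 CPM over the 6 libraries, after each locus was centred on its own mean. By this measure the loci nearest to Psat5g190640 were Psat2g191000, a plant acid phosphatase (0.056), Psat1g113800, matched to an amino acid carrier named lysine histidine transporter 1-like (0.119), and Psat7g125120, matched to cell number regulator 2-like (0.123). Nearest to Psat5g190680 were Psat1g030680, a hypothetical protein (0.071), Psat2g013480, a TIR-similar-domain-containing protein (0.093), and the ABC transporter Psat0s3007g0040 (0.097). The dnaJ homolog was most like Psat5g089480, a TTL3-like protein with TPR repeats (0.133), Psat0s5330g0080, a short-chain dehydrogenase/reductase (0.180), and Psat5g121480, an F-box/LRR protein (0.184). A locus with the same group difference scores well by construction, and the order rests on single libraries. With 1 library left out, between 0 and 3 of the 3 nearest loci of a member were still among its nearest.

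The cluster's own members were not each other's nearest loci. Psat5g190680 was in place 39 of 21292 in likeness to Psat5g190640, with a root mean square difference of 0.248. This place was 59 without CO8-DA replicate 2, 91, 21 and 107 without control replicates 1, 2 and 3, and within 1.5 times of 39 without either of the other CO8-DA libraries. Psat5g190640 was in place 769 in likeness to the dnaJ homolog (0.549), a place that moved to 96 without control replicate 2 and to 3771 without CO8-DA replicate 3. It was 480 and 1801 without CO8-DA replicates 1 and 2 and 1686 without control replicate 1. Psat5g190680 was nearer to the dnaJ homolog, in place 164 (0.395). Psat0s3007g0040 was more like Psat5g190680, at 0.097, than Psat5g190640 was, at 0.248.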

How the data were processed

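The deposited values are estimated counts per gene, made by the authors and not normalized. Per the labels and methods, paired reads were trimmed (Trimmomatic 0.39), aligned to the pea genome v1a (Bowtie2 2.4.4) and counted with RSEM 1.3.1, which divides a read that fits several loci between them; the versions are from the submitters' processing notes. After rounding, the counts entered edgeR 4.0.16 under R 4.3.3, with TMM, filterByExpr defaults, glmQLFTest and group as the only term. Benjamini-Hochberg adjustment ran over the 21293 loci that passed the filter. Tests are two-sided. Calls needed a log2 fold change of 1 or more in size and an adjusted p under 0.05. The standard error is the log2 fold change divided by the square root of F. The script was tested on simulated data. Tables and plots used matplotlib 3.10.9, pandas 2.3.3, scipy 1.17.1 and numpy 2.4.6 in Python 3.11.15.

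The members and lists were chosen with earlier results of these data known. Loci named are the 3 members, loci described as ABC transporter A family or dnaJ in the supplementary tables, other ABC transporters among the loci listed as changed, the 2 nearest flanking loci on each side with any that were called, and the 3 loci most like each member. Psat5g190520 was named because an alternative called it. Descriptions and domains come from the supplementary tables, of which one was at hand only in part, with the 1999 loci of the highest fold changes. Psat5g190960 was named because it sets a limit. Log2 CPM for likeness used a prior count of 2. Alternatives were DESeq2 1.42.0, other scalings, no filter, unrounded counts, blocks by replicate or library number, other windows, and each library left out. No sequence is shown, since the reference table used here does not pair locus numbers with sequences.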

Additional observations from a re-analysis of the deposited data

How the results depend on the processing

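The log2 fold changes of the 3 members kept their direction and moved by less than the spread between replicates in all 8 alternatives to which every library was given. They lay between 1.69 and 1.81 for Psat5g190640, 1.36 and 1.40 for Psat5g190680 and 1.37 and 1.62 for Psat5g190720. The values 1.81 and 1.37 come from the block by library number. In it control replicate 1 and CO8-DA replicate 3 share their number with no other library and add nothing to the group difference. With 1 library left out they lay between 1.39 and 1.96, 1.14 and 1.56, and 1.43 and 1.82. The number of loci called over the whole table, 666, lay between 371 and 943 with 1 library left out and was 404, 371 and 383 without CO8-DA replicates 1, 2 and 3. DESeq2 called 856 loci on the same filtered counts.

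The replicate numbers of the titles were not taken as pairs, because 1 of the 3 same-numbered correlations of deviations from the group means (0.23, 0.04 and 0.15) was under 0.1. As a hint from the data, every library except control replicate 2 correlated best with the other group's library of its own number, while control replicate 2 did so with CO8-DA replicate 3, at 0.09. A replicate block by these numbers called 706 loci. A replicate block by library number called 1094 loci and 1 flanking locus, against 0 flanking loci in the fit without it and in every fit that left out 1 library. In the block by library number the group difference comes only from the libraries other than control replicate 1 and CO8-DA replicate 3. The flanking locus called there, Psat5g190520, had a log2 fold change of -1.48 in that fit and -1.42 without CO8-DA replicate 3. What raised the number of called loci was not tested. Windows of 5 and 20 loci on each side also held 0 called loci.

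The log2 ratio of Psat5g190640 to Psat5g190720 differed between the groups by 0.27, and by between -0.18 and 0.54 with 1 library left out, below 0 without CO8-DA replicate 1 (-0.01) or control replicate 2 (-0.18). That of Psat5g190680 to Psat5g190720 lay between -0.43 and 0.08, above 0 without CO8-DA replicate 2 (0.049) or control replicate 3 (0.081). Places in the order of likeness lay, with 1 library left out, between 21 and 107 for Psat5g190680 to Psat5g190640, between 45 and 193 for the reverse, which was 87 with all libraries, and between 96 and 3771 for Psat5g190640 to the dnaJ homolog. Other scaling and another prior count kept all 3 nearest loci of each member.

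With 39 to 52 estimated counts in the lowest library, the levels of Psat5g190720 and Psat5g190680 are limited by counting error there.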

Other observations

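DnaJ proteins work with heat shock proteins of the Hsp70 class, and 2 loci of that class are listed as changed in the same supplementary table. Both were chosen with their values known, and the list fixes their direction. Psat1g197400, a heat shock protein of that class, had 87, 98 and 158 estimated counts in the CO8-DA libraries, against 33, 8 and 26 in the control libraries, a log2 fold change of 2.12 (standard error 0.37). Psat4g219640, a heat shock cognate protein of that class, had 17, 9 and 43 estimated counts in the CO8-DA libraries, against 0, 1 and 4 in the control libraries, and did not pass the filter on low counts. In Psat1g197400 control replicate 2 was the lowest control library, as in both ABC transporter loci of the cluster and unlike the dnaJ homolog. Control replicate 2 was lowest in 66.8% of the 561 loci called higher, so nothing is read from this likeness.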
